A study of Mus musculus with 6 samples.

Results

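The transcription factors and co-activators that switch on the heat-producing program of brown and beige fat cells were examined in the inguinal subcutaneous white adipose tissue (SC-WAT) of 3 *Egr1*+/+ and 3 *Egr1*-/- mice. The group was a list of 10 named genes, picked by symbol out of the 47069 genes in the count tables: *Ppargc1a*, *Ppargc1b*, *Prdm16*, *Ebf2*, *Esrra*, *Esrrb*, *Esrrg*, *Ppara*, *Irf4* and *Zfp516*. Of these, 9 had enough reads for a test and *Esrrb* did not, so the counts of members below refer to the 9 tested genes among 17667 tested in all. All 6 mice were 2-week-old females from crosses of heterozygous parents of a line kept on the C57BL/6J background (C57BL/6 in the labels), kept without cold exposure or another stimulus, and each gave 1 library of ribosome-depleted RNA. The *Egr1*-/- mice carry a germline *LacZ* insertion with a frameshift ahead of the sequence for the DNA-binding domain, so every cell type lacks a working copy. The mice came from 4 litters, and a single *Egr1*+/+ and a single *Egr1*-/- mouse shared one, but which mice these were is not given in the sources used here, so litter could not be entered in a test. The comparison addresses whether the loss of EGR1, a zinc finger transcription factor, goes along with a change of the regulators that act upstream of the thermogenic genes.

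Brown and beige adipocytes burn fuel to make heat. PGC-1α, the product of *Ppargc1a*, is a co-activator that cold and adrenergic signals induce, and it acts through nuclear receptors such as PPARα, PPARγ and the estrogen-related receptors ERRα, ERRβ and ERRγ (*Esrra*, *Esrrb* and *Esrrg*) on genes of mitochondria, fatty acid oxidation and *Ucp1*, the uncoupling protein. PRDM16 and EBF2 give adipocyte precursors a brown or beige identity, and IRF4 and ZFP516 bind partners of this network to induce thermogenic genes after fasting or cold.

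The libraries held 29661984 to 42357981 gene counts, 50% to 66.3% of them on the mitochondrial genome, which left 12572968 to 18449896 counts per library for nuclear genes. Values below are in CPM, the counts scaled to a common library size after TMM normalization. *Egr1* itself had 57 to 103 counts in *Egr1*-/- libraries against 241 to 711 in *Egr1*+/+ libraries. The marker genes of mature adipocytes (*Adipoq*, *Plin1*, *Fabp4* and 5 more) were abundant in all mice, with a summed level of 7000 to 7890 CPM in *Egr1*+/+ and 5520 to 6440 CPM in *Egr1*-/- mice. The 14 skeletal muscle markers, all of them detected, differed more between mice of a genotype than between genotypes, with sums of 1240, 3880 and 238 CPM in *Egr1*+/+ replicates 1 to 3 and 116, 405 and 3050 CPM in *Egr1*-/- replicates 1 to 3. Muscle also expresses several of the regulators, and the fold changes of the 9 tested members are therefore also given without the mouse of each genotype with the most muscle transcripts. In such bulk tissue fewer cells of a type and less RNA per cell cannot be told apart.

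Of the 9 tested regulators, 7 had a higher mean level in *Egr1*-/- SC-WAT and 2 a lower one, with a median log2 fold change of 0.51 where the median of all tested genes was 0. By the quasi-likelihood test of edgeR, adjusted after Benjamini and Hochberg, 0 of the 9 had an adjusted p under 0.05, a threshold that 3 of the 17667 genes (0.017%) passed. *Egr1*, the disrupted gene, did not pass it either (log2 fold change -2.19, adjusted p = 0.0878, edgeR), so missing this threshold does not show that a gene is unchanged. At an unadjusted p under 0.05, 5 of the 9 were higher in *Egr1*-/- mice and 0 lower, where 5.06% of all tested genes were higher and 5.6% lower. These 5 were *Ppargc1a*, *Ppargc1b*, *Ppara*, *Esrrg* and *Esrra*, which are the PGC-1 co-activators and the nuclear receptors among the 9 tested genes. In the same 5 genes the lowest *Egr1*-/- mouse exceeded the highest *Egr1*+/+ mouse, a separation seen in 8.15% of all tested genes, and 0 members were lower in every *Egr1*-/- mouse, as 8.1% of all genes were. With DESeq2, the test the study used, 3 members had an adjusted p under 0.05, where 0.736% of all tested genes passed as higher in *Egr1*-/- mice. The 3 were *Ppargc1a*, *Ppargc1b* and *Ppara*. The study had named *Ppargc1a* and *Ppara* as increased from these same libraries, so their place among the 3 is no independent evidence. It also reported both as increased by RT-qPCR, in mice of the sequenced age and in adults. Whether the younger mice included those sequenced is not stated, while the adults were other animals.

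**Figure D1:**
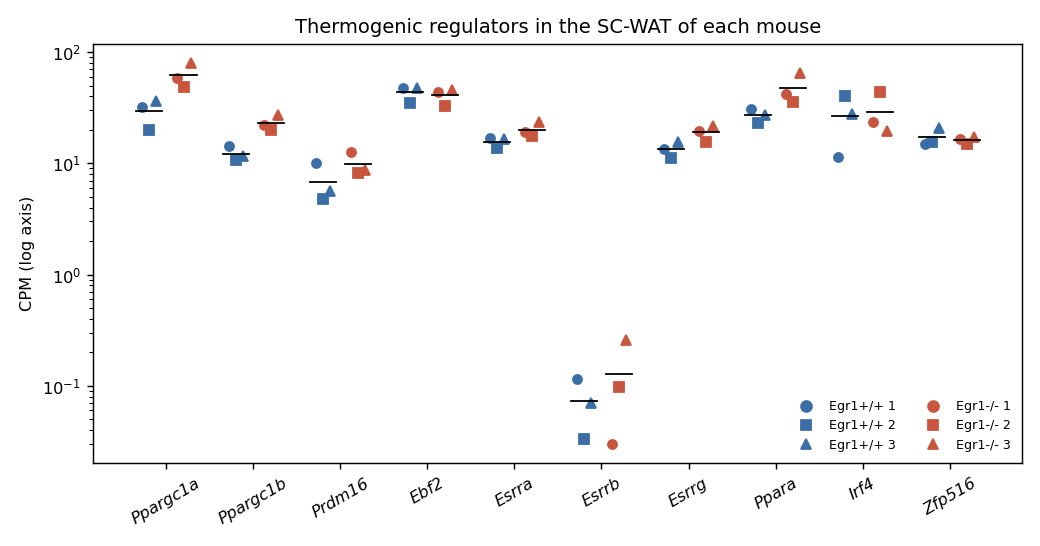
Level of each of the 10 regulators in each mouse, in CPM on a log axis, with *Egr1*+/+ mice in blue, *Egr1*-/- mice in red, the replicate number shown by the symbol, and a bar at the mean of each genotype. The *Egr1*-/- points lie above the *Egr1*+/+ points for *Ppargc1a*, *Ppargc1b*, *Esrra*, *Esrrg* and *Ppara*, and they overlap for the other 5 genes.

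*Ppargc1a* (ENSMUSG00000029167.13; GRCm38 chromosome 5, 51454250 to 51567726, minus strand) had the largest fold change of the list. It was measured at 32.1, 19.9 and 36.4 CPM in *Egr1*+/+ replicates 1 to 3 and at 58.7, 48.4 and 79.7 CPM in *Egr1*-/- replicates 1 to 3. The lowest *Egr1*-/- mouse was thus above the highest *Egr1*+/+ mouse. The means were 29.5 ± 8.59 and 62.2 ± 16 CPM (SD, n = 3 in each genotype). The log2 fold change was 1.08 with a 95% interval from 0.53 to 1.63, which is 2.11-fold (adjusted p = 0.193, edgeR). The interval lies above 0 because it belongs to this gene alone, while the adjusted p counts all tested genes.

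The gene has a pair of annotated start regions, and the deposited counts add the transcripts of both. Of its 5 GENCODE M21 transcripts, 2 begin at the upstream start and 3 at a start 13.8 to 13.9 kb further downstream. RefSeq promoter windows, of 250 bases before to 50 bases after a start in GRCm38.p6, were at hand for 7 of the 10 members. They are shown for *Ppargc1a*, at its upstream start, and for *Ppara*, the regulators of the PGC-1 and PPAR families with the largest fold changes among those with a window. Capitals mark matches to any motif searched, read on both strands.

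*Ppargc1a*, chr5:51567676-51567975, minus strand: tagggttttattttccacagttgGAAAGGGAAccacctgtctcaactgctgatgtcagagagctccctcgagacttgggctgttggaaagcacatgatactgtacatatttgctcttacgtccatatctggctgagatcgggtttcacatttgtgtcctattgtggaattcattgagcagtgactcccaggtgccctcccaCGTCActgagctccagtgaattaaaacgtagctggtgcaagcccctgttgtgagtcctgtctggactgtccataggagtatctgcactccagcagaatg
*Ppara*, chr15:85735526-85735825, plus strand: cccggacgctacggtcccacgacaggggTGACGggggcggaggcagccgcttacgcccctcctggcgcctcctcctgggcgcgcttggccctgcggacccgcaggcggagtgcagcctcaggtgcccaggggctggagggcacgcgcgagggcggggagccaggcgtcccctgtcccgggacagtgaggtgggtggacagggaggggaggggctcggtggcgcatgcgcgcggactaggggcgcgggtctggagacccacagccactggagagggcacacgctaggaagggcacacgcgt

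The windows differ in base composition. That of *Ppargc1a* is 48.7% G and C with 5 CG pairs, and that of *Ppara* is 74.7% G and C with 30 CG pairs, where the median of 32851 mouse promoter windows is 52.7% G and C. The EGR1 binding letters GCGTGGGCG or GCGGGGGCG are in 3.47% of all windows and in 0 of the 11 windows of these 7 members. They were also absent from the searched windows of *Ucp1* and *Cebpb*, at whose promoters the study found EGR1 by chromatin immunoprecipitation. A missing match thus does not show a lack of binding. The capitals at -227 in *Ppargc1a*, counted from the start, match the IRF letters GAAANNGAA, found in 8.56% of windows. Those at -49 in *Ppargc1a*, on the opposite strand, and at -222 in *Ppara* match TGACG, the short form of the site of the cyclic AMP responsive factor CREB, which is in 20.8% of windows and was added to the search after the others. The ERR letters TCAAGGTCA (0.423% of windows), the nuclear receptor core site AGGTCA contained in them (16.3%) and the EBF letters CCCNNGGGA (6.56%) matched none of the 11 windows. A match to letters is no measured binding site, and windows further from a start were not searched.

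*Ppargc1b*, the gene of the related co-activator PGC-1β, which supports mitochondrial gene expression in much the same tissues, differed by nearly as much. Its levels were 14.3, 10.6 and 11.7 CPM in *Egr1*+/+ mice and 21.9, 20.1 and 27.2 CPM in *Egr1*-/- mice. The genotypes did not overlap, and the spread within each was smaller than for *Ppargc1a*, at 15.9% and 16% of the mean against 29.1% and 25.6%. The log2 fold change was 0.92 (95% interval 0.56 to 1.28, adjusted p = 0.155, edgeR), and its unadjusted p was the lowest of the list.

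The third family member, *Pprc1*, was measured at 10.3 CPM in *Egr1*+/+ and 11.7 CPM in *Egr1*-/- mice, with overlapping mice and a log2 fold change of 0.18 (adjusted p = 0.744, edgeR). The balance of the PGC-1 pair was compared within each library, where normalization plays no part. The log2 ratio of *Ppargc1a* to *Ppargc1b* counts was 1.24 ± 0.372 in *Egr1*+/+ and 1.41 ± 0.143 in *Egr1*-/- mice (SD, n = 3 in each; exact permutation test, two-sided p = 0.5, 0.6 after Benjamini-Hochberg adjustment over 6 ratios). With 3 mice against 3 the smallest p this test allows is 0.1. No shift from one co-activator to the other was thus detectable.

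*Ppara* (chromosome 15, 85734983 to 85802819, plus strand) encodes the nuclear receptor that drives genes of fatty acid oxidation, with fatty acids as its ligands. It was at 30.9, 22.9 and 27.3 CPM in *Egr1*+/+ mice and at 42.2, 35.8 and 65.4 CPM in *Egr1*-/- mice. The groups did not overlap, and *Egr1*-/- replicate 3 stood well above the other *Egr1*-/- mice. The log2 fold change was 0.82 (95% interval 0.33 to 1.31, adjusted p = 0.236, edgeR), and 0.53 without that mouse.

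Among its relatives, *Pparg*, the main adipogenic receptor, was at 139 and 133 CPM (log2 fold change -0.06, 95% interval -0.38 to 0.25), and *Ppard* at 5.64 and 6.98 CPM (0.31). The log2 ratio of *Ppara* to *Pparg* counts was -2.33, -2.31 and -2.44 in *Egr1*+/+ mice, against -1.68, -1.82 and -1.07 in *Egr1*-/- mice. The ratio was thus higher in each *Egr1*-/- mouse, by 0.84 between the means (two-sided exact permutation p = 0.1, which is the lower limit, and 0.3 after adjustment over the 6 ratios).

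The estrogen-related receptors are orphan receptors that PGC-1 co-activators use to reach genes of the respiratory chain and citric acid cycle. *Esrrg* (chromosome 1, 187608791 to 188214885) was at 13.5, 11.1 and 15.5 CPM in *Egr1*+/+ and at 19.7, 15.7 and 21.7 CPM in *Egr1*-/- mice. The mice of the genotypes only just separated, with 15.5 CPM as the highest *Egr1*+/+ value and 15.7 CPM as the lowest *Egr1*-/- value. The log2 fold change was 0.51 (95% interval 0.13 to 0.88, adjusted p = 0.319, edgeR).

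*Esrra* (chromosome 19, 6910977 to 6921813) was at 16.8, 13.6 and 16.4 CPM in *Egr1*+/+ and at 19.1, 17.7 and 23.3 CPM in *Egr1*-/- mice, again with a narrow gap between the groups. Its log2 fold change was 0.36 (95% interval 0.04 to 0.69, adjusted p = 0.411, edgeR). Of its 4387 exon bases, 73 are shared with *Trmt112* on the other strand. *Esrrb*, known from the placenta and pluripotent cells, had 4, 1 and 3 counts in *Egr1*+/+ and 1, 3 and 8 counts in *Egr1*-/- mice, too few for a test. The log2 ratio of *Esrrg* to *Esrra* counts was -0.23 ± 0.13 and -0.08 ± 0.114 (SD, n = 3 in each; exact permutation test, two-sided p = 0.3, 0.45 after adjustment).

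**Figure D2:**
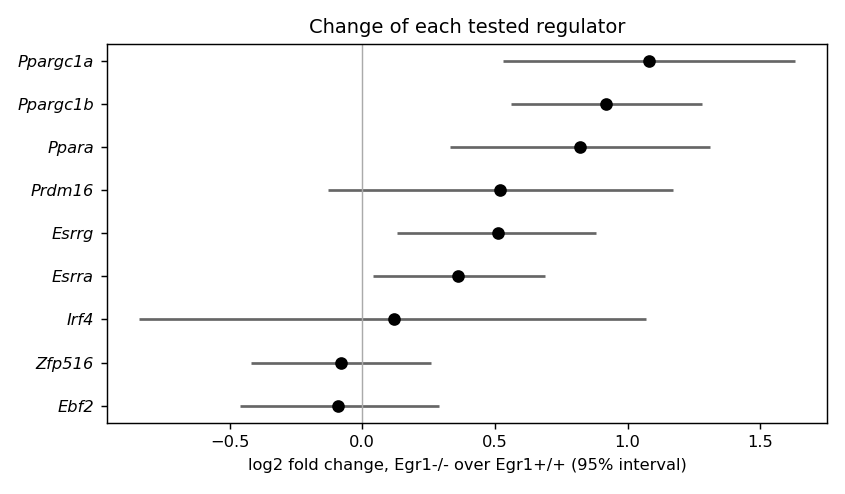
Log2 fold change of the 9 tested regulators, *Egr1*-/- over *Egr1*+/+, with lines for the 95% interval of the edgeR fit. The intervals of *Ppargc1a*, *Ppargc1b*, *Ppara*, *Esrrg* and *Esrra* lie above 0, and those of *Prdm16*, *Irf4*, *Zfp516* and *Ebf2* include 0.

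The factors that set brown or beige identity had wider or centred intervals. *Prdm16* (chromosome 4, 154316125 to 154636873) was at 10.1, 4.79 and 5.66 CPM in *Egr1*+/+ and at 12.7, 8.1 and 8.76 CPM in *Egr1*-/- mice. *Egr1*+/+ replicate 1 was above a pair of *Egr1*-/- mice, so the groups overlapped. The log2 fold change of 0.52 was as large as that of *Esrrg*, but with a 95% interval of -0.13 to 1.17 (adjusted p = 0.577, edgeR). Leaving out single mice gave 0.3 to 0.89, the highest value being that without *Egr1*+/+ replicate 1.

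The log2 ratio of *Prdm16* to *Zfp423*, a zinc finger gene whose product holds back the thermogenic program in white adipocytes, was -1.07, -1.83 and -1.88 in *Egr1*+/+ mice, against -0.74, -1.07 and -0.91 in *Egr1*-/- mice. The groups met at -1.07, the value of *Egr1*+/+ replicate 1 and of *Egr1*-/- replicate 2 at this rounding, and the means differed by 0.69 (exact permutation test, two-sided p = 0.1, 0.3 after adjustment). *Zfp423* itself was at 19.7 and 18.2 CPM, with a log2 fold change of -0.12. The ratio of *Prdm16* to *Ebf2* was higher by 0.66 in *Egr1*-/- mice with overlapping groups (exact permutation p = 0.2, 0.4 after adjustment).

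*Ebf2* (chromosome 14, 67233292 to 67430918), whose product marks brown and beige precursors and recruits PPARγ to brown fat genes, was at 47.9, 35.1 and 47.2 CPM in *Egr1*+/+ and at 43.8, 33 and 45.8 CPM in *Egr1*-/- mice. The values of the genotypes lay side by side, with a log2 fold change of -0.09 and a 95% interval from -0.46 to 0.29. An increase of the size of *Ppargc1a* lies outside that interval. Of the 6928 exon bases, 424 are shared with *Gm10860* on the opposite strand, and the strand setting of the counting is not given in the sources used here. *Ebf1*, the more abundant relative, was at 149 CPM in both genotypes, and the log2 ratio of *Ebf2* to *Ebf1* differed by -0.1 (exact permutation test, two-sided p = 0.7, the same after adjustment).

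*Zfp516*, which encodes a cold-induced activator of *Ucp1*, was at 15, 15.7 and 20.9 CPM in *Egr1*+/+ and at 16.7, 14.9 and 17.2 CPM in *Egr1*-/- mice. Its log2 fold change was -0.08 with a 95% interval from -0.42 to 0.26 (adjusted p = 0.891, edgeR). *Zfp516* and *Ppargc1b* lie on the chromosome that carries *Egr1*, 48 and 26.4 Mb from it.

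*Irf4* (chromosome 13, 30749226 to 30766976) had the largest spread relative to its mean among the 9 tested members, with an SD of 54.6% of the mean in *Egr1*+/+ and 44.8% in *Egr1*-/- mice. In adipocytes IRF4 is induced by fasting and cold and works with PGC-1α, and in the immune system it is a factor of B cells, plasma cells and macrophages. Its levels were 11.5, 40.5 and 27.7 CPM in *Egr1*+/+ and 23.4, 43.5 and 19.5 CPM in *Egr1*-/- mice. Mice of 1 genotype differed by more than the genotypes did, and the log2 fold change of 0.12 had a 95% interval from -0.84 to 1.07, too wide to tell a 1.77-fold change such as that of *Ppara* from none.

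The 8 B and plasma cell markers summed to 199, 186 and 210 CPM in *Egr1*+/+ and 181, 326 and 249 CPM in *Egr1*-/- mice. The 7 T cell markers summed to 72.3, 69.5 and 78.1 CPM in *Egr1*+/+ and 44.2, 143 and 95.6 CPM in *Egr1*-/- mice. *Egr1*-/- replicate 2 was thus highest for *Irf4* and for both immune lists, while in *Egr1*+/+ mice, where *Irf4* ran from 11.5 to 40.5 CPM, both sums were nearly level. The 8 macrophage and dendritic cell markers summed to 208, 288 and 255 CPM in *Egr1*+/+ and 200, 155 and 152 CPM in *Egr1*-/- mice. Their order was that of *Irf4* in the *Egr1*+/+ mice but not in the *Egr1*-/- mice. No listed gene of these was at 0 in all mice, and their part in the level of *Irf4* was not tested.

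Per kilobase of annotated exon, where levels of genes can be roughly compared, *Ppara* led in *Egr1*+/+ mice with 7.05 ± 1.04 CPM per kb (SD, n = 3). *Ebf2* (6.27), *Irf4* (5.42), *Ppargc1a* (4.47), *Esrra* (3.55) and *Ppargc1b* (3.06) followed, and each of these neighbours in the order overlapped with the next over the *Egr1*+/+ mice. The *Egr1*+/+ values of *Ppargc1b* (SD 0.485) and *Esrrg* (2.15, SD 0.359) did not overlap, though the gap was narrow. *Esrrg* was followed by *Zfp516* (2.08) within the spread. *Prdm16* (0.735) was below all of them without overlap, and *Esrrb* (0.0121) was near the limit of detection. In *Egr1*-/- mice *Ppargc1a* stood second with 9.44 ± 2.42 CPM per kb, behind *Ppara* with 12.5 ± 4.07, while the last 4 places were as in *Egr1*+/+ mice. The scarcity of *Prdm16* beside *Ebf2* thus held in both genotypes. The length used was the union of the exons of all annotated transcripts, so exons unused in this tissue lower a gene's value. The order therefore depends in part on the annotation.

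The mice ranked alike for many of the members. *Egr1*+/+ replicate 2 was the lowest of its genotype for 7 of the 9 tested members, *Egr1*-/- replicate 2 the lowest of its own for 8, and *Egr1*-/- replicate 3 the highest for 7. Across the 6 mice the log2 CPM of *Ppargc1a* had a Pearson r of 0.979 with *Esrrg*, 0.972 with *Esrra*, 0.944 with *Ppara* and 0.939 with *Ppargc1b*, and of 0.659 with *Prdm16*, 0.297 with *Ebf2*, 0.155 with *Zfp516* and -0.226 with *Irf4*. The 5 genes most like *Ppargc1a* among 17666 were *Ubl3*, *Ddhd2*, *Ntrk3*, *Proser2* and *Isca2*, with r from 0.9883 to 0.9926. These are descriptions over 6 mice that share their libraries and fall into 2 genotypes, and 322 genes had an r above 0.9.

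The muscle transcripts did not follow the same order. *Egr1*+/+ replicate 2 had the most muscle marker RNA of all mice, 3880 CPM, and the least *Ppargc1a*, 19.9 CPM, while *Egr1*-/- replicate 3, with 3050 CPM of muscle markers, had the most *Ppargc1a*, 79.7 CPM. With the muscle sum as a covariate the log2 fold changes were 1.07 for *Ppargc1a*, 0.95 for *Ppargc1b*, 0.86 for *Ppara* and 0.49 for *Esrrg*, all close to those without it. Without both mice named above, which left 2 in each genotype, they were 0.64 for *Ppargc1a* (95% interval 0.28 to 1.01), 0.69 for *Ppargc1b* (0.3 to 1.09), 0.42 for *Ppara* (0.07 to 0.78), 0.29 for *Esrrg* (-0.13 to 0.7) and 0.15 for *Esrra* (-0.2 to 0.5). *Irf4* went the other way, to 0.77 (-0.17 to 1.71), the highest value of the list in that comparison and the one with the widest interval. *Prdm16* was at 0.4 (-0.33 to 1.13), *Ebf2* at -0.31 (-0.7 to 0.08) and *Zfp516* at -0.18 (-0.64 to 0.27). In that comparison 3 members had an unadjusted p under 0.05 in place of 5, as they did without *Egr1*-/- replicate 3 alone, and the directions of the 9 members stayed the same. The size of the differences thus rested in part on these mice, which were at the low and the high end of their genotype for most members.

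**Figure D3:**
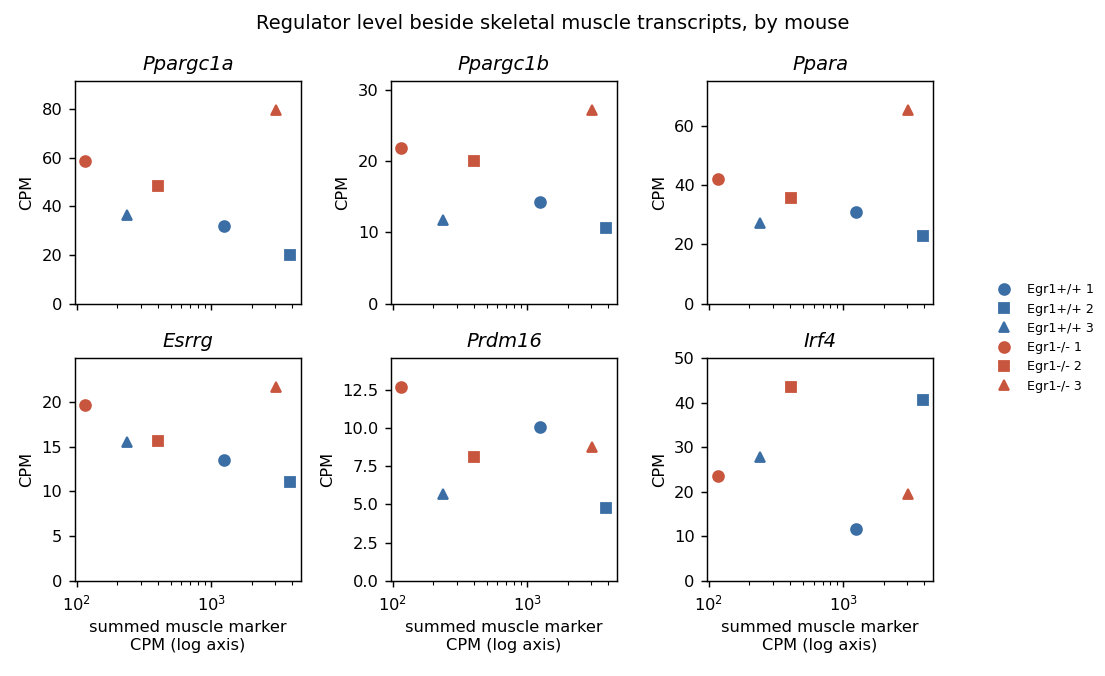
Level of 6 regulators in CPM against the summed CPM of 14 skeletal muscle markers on a log axis, 1 point per mouse, with *Egr1*+/+ mice in blue, *Egr1*-/- mice in red and the replicate number shown by the symbol. *Ppargc1a*, *Ppargc1b* and *Ppara* are higher in each *Egr1*-/- mouse, at muscle sums from 116 to 3050 CPM, than in any *Egr1*+/+ mouse at 238 to 3880 CPM.

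Marker sums of several cell types differed between the genotypes beside these changes. The 8 brown adipocyte markers, led by *Ucp1*, summed to 641, 533 and 488 CPM in *Egr1*+/+ and 1240, 869 and 1430 CPM in *Egr1*-/- mice, whose order was that of *Ppargc1a* in the *Egr1*-/- mice but not in the *Egr1*+/+ mice. The 8 stromal progenitor markers, led by *Dcn*, summed to 858 to 919 CPM in *Egr1*+/+ and 475 to 632 CPM in *Egr1*-/- mice. *Ebf2*, which progenitors also express, had overlapping levels of 35.1 to 47.9 and 33 to 45.8 CPM. The 6 Schwann cell markers were lower as well (241 to 342 CPM and 167 to 215 CPM), whereas the sums of 6 endothelial markers (373 to 472 CPM and 343 to 514 CPM) and 7 mammary epithelial markers (71.5 to 79.1 CPM and 53.4 to 71.8 CPM) overlapped. The 4 hepatocyte markers, which fat should lack, stayed under 10 CPM in sum (8.24 to 9.59 CPM and 4.07 to 5.76 CPM). The part of these shifts in the regulators' levels was not tested.

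The median differences of genes that work with the regulators were smaller. Of all tested genes, 5.06% were higher and 5.6% lower at an unadjusted p under 0.05 in edgeR, the shares to set beside the list counts below. Of 18 co-regulators of PGC-1 and the ERRs, 14 were higher and 4 lower in *Egr1*-/- mice with a median log2 fold change of 0.13, 4 had an unadjusted p under 0.05, all higher, and 0 passed the adjusted threshold. *Perm1*, a muscle-enriched regulator that the PGC-1 and ERR pathway induces, was at 7.06 and 13 CPM (log2 fold change 0.89, adjusted p = 0.227, edgeR). *Lpin1*, whose product lipin-1 is a phosphatidate phosphatase and PGC-1α partner, was at 124 and 183 CPM (0.56). The Mediator subunit gene *Med1* and the acetyltransferase gene *Ep300* both had a log2 fold change of 0.28. *Nrip1*, the co-repressor RIP140, was at 120 CPM in both genotypes, and *Tfam*, the factor of mitochondrial DNA transcription, at 26.2 and 25.6 CPM.

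Of 14 partners of PRDM16 and EBF2, 8 were higher and 6 lower with a median of 0.05, and 2 had an unadjusted p under 0.05. *Cebpb*, which PRDM16 binds, was at 16.1 and 25.8 CPM (log2 fold change 0.68, adjusted p = 0.226, edgeR), and the study had named it from these libraries. The study also reported *Cebpb* as increased by RT-qPCR. By chromatin immunoprecipitation it found EGR1 at the promoters of *Cebpb* and *Ucp1* but not at that of *Ppargc1a*. The stretches it amplified were short and placed from the coding sequence, so they need not lie in the windows searched above. *Zbtb7b* had a log2 fold change of 0.27, *Cebpa* of 0.32 and *Mecom*, a PRDM relative, of -0.25. The histone methyltransferase gene *Ehmt1* (0.04) and the co-repressor gene *Ctbp1* (-0.03) were near level.

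Of the 14 tested genes among 16 other positive regulators, 11 were higher with a median of 0.14, and 1 had an unadjusted p under 0.05. That was the cyclic AMP responsive receptor gene *Nr4a1*, at 4.82 and 6.78 CPM (log2 fold change 0.49). *Hlx* (0.57), *Nr4a3* (0.45) and *Tbx15* (-0.32) came next by p. Of 10 negative regulators 6 were higher and 4 lower with a median of 0.07, and 0 had an unadjusted p under 0.05. Those with the lowest p were *Twist1* (-0.32), *Rb1* (0.19), *Hoxc10* (-0.34) and *Tle3* (0.17).

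Among the 23 tested paralogs of the regulators, 14 were higher and 9 lower with a median of 0.15, and 4 had an unadjusted p under 0.05, 2 in each direction. *Irf7*, an interferon-induced relative of *Irf4*, was at 4.46 and 8.5 CPM (0.93, overlapping mice). *Prdm6* was at 1.09 and 0.474 CPM (-1.19) and *Prdm15* at 6.38 and 8.25 CPM (0.37). The medians of these 5 lists were within 0.15 of that of all genes, and with total counts in place of TMM, which moved the median of all genes to -0.15, they lay between -0.09 and 0.02.

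The genes that PGC-1α, the ERRs and PPARα act on had a median near that of the regulators. Of 23 tested target genes, 22 were higher and 1 lower in *Egr1*-/- mice with a median log2 fold change of 0.58, 18 had an unadjusted p under 0.05, all higher, 11 passed in DESeq2 and 0 passed the adjusted threshold in edgeR. In 16 of them the genotypes separated, with *Egr1*-/- mice above. Those with the lowest p were *Dio2*, which activates thyroid hormone (1.91), *Ucp1* (1.22), *Plin5*, of the lipid droplet surface (0.94), and *Cox8b*, a subunit of cytochrome oxidase (0.76). The study had named these 4 and *Cidea* from the same libraries, so their direction is not independent. It also reported these genes as increased by RT-qPCR. *Acot2*, of fatty acid metabolism, was near level (0.07) and was chosen after its values were seen. The target genes *Ucp1*, *Cidea*, *Cox8b*, *Cox7a1* and the untested *Elovl3* are also among the brown adipocyte markers above. That marker sum and this list thus share transcripts and are not separate results. The related lists share genes with each other as well. *Perm1* is among co-regulators and targets, *Pprc1* among co-regulators and paralogs, and *Nrip1* among co-regulators and negative regulators, and there are others.

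**Figure D4:**
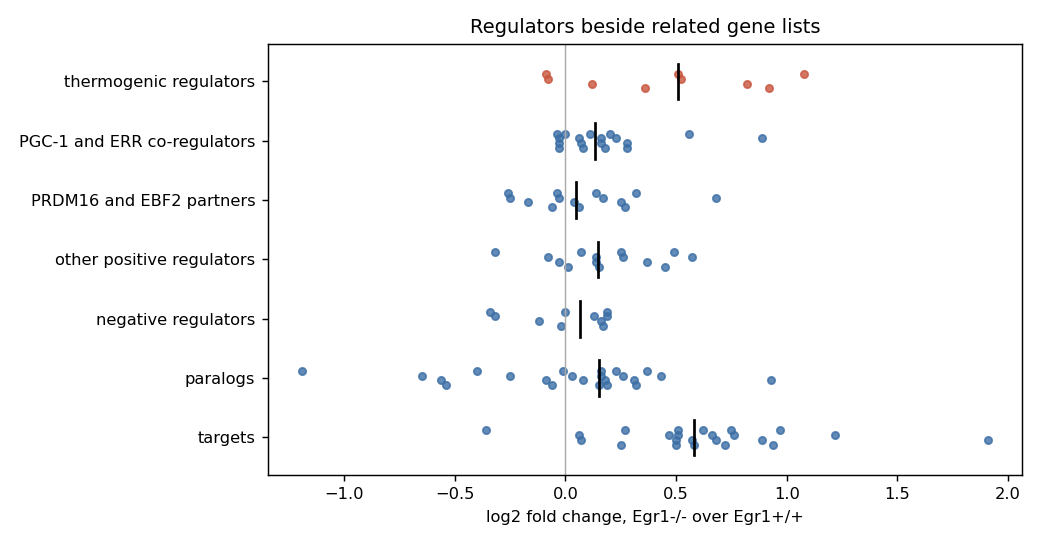
Log2 fold change, *Egr1*-/- over *Egr1*+/+, of each tested gene in the list of regulators (red) and in 6 related lists (blue), with a line at the median of each list. The medians of the regulators (0.51) and the target genes (0.58) lie to the right of those of the other 5 lists (0.05 to 0.15). Some genes are in several of the related lists.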

How the data were processed

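RNA of inguinal SC-WAT from 3 *Egr1*+/+ and 3 *Egr1*-/- mice was sequenced, 1 library per mouse. The authors mapped reads with TopHat and Bowtie to GRCm38, counted them over GENCODE M8 genes with featureCounts, and deposited the unnormalized counts. The libraries were strand-specific, and the strand and multimapping settings of the counting are not given in the sources used here. Genotypes and replicate numbers came from the sample titles. Symbols, positions and exon lengths came from GENCODE M21, by Ensembl identifier without version (46574 of 47069 genes matched). The main test was run with edgeR 4.0.16 under R 4.3.3 (TMM, filterByExpr, quasi-likelihood test, Benjamini-Hochberg adjustment over all tested genes at 0.05, no covariate). Intervals of 95% used the t distribution of that fit. Log2 CPM used a prior count of 2, and within-library ratios added 0.5 to each count. DESeq2 1.42.0 and limma 3.58.1 gave alternatives, DESeq2 being the study's tool. The fit was tested on simulated data. P-values measure the spread between these mice only.

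The members and the gene lists were chosen with earlier results of these data known. Genes named are the 10 members, *Egr1*, the genes of the 6 ratios, the 4 genes of each related list with the lowest p, the leading marker of a cell type, and the 5 genes most like *Ppargc1a*. *Pprc1*, *Ppard*, *Nrip1*, *Tfam*, *Ehmt1*, *Ctbp1* and *Acot2* were added after their values were seen. Single genes that fell under these rules but are not named are not reported here. Promoter windows came from RefSeq. Same-numbered mice had correlations of -0.0888, 0.106 and -0.126 after the genotype means were removed, so the numbers were not taken as pairs. No 2 libraries agreed within sampling noise.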

Additional observations from a re-analysis of the deposited data

How the results depend on the processing

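The number of genes changed across all genes, 3 with edgeR, was 372 with DESeq2, 1 with limma-voom, 0 with upper-quartile normalization, 79 with total counts, 552 without the filter on low counts, 6 with the muscle covariate and 0 without the mouse of each genotype with the most muscle transcripts, an alternative added after seeing the data. Leaving out single mice gave 0 to 59, with 59 without *Egr1*-/- replicate 1. With the replicate number as a block it was 0, and the pairing changed no member's direction or adjusted call.

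For the regulators, 0 of 9 passed except with DESeq2 and without the filter, where 3 did. The log2 fold changes there were 1.08 (adjusted p = 0.000924) and 1.09 (2.55e-09) for *Ppargc1a*, 0.92 (0.000292) and 0.93 (8.07e-06) for *Ppargc1b*, and 0.82 (0.0126) and 0.83 (2.05e-05) for *Ppara*, by DESeq2 and edgeR respectively. At an unadjusted p under 0.05 there were 3 members with total counts and without the most muscle-rich mice, and 3 to 6 with each mouse left out. *Ppargc1a*, *Ppargc1b*, *Prdm16*, *Esrra*, *Esrrg* and *Ppara* were higher in *Egr1*-/- mice in each of 16 alternatives.

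Signs turned where a change was near 0. Leaving out single mice gave -0.22 to 0.05 for *Ebf2*, -0.3 to 0.55 for *Irf4*, -0.19 to 0.08 for *Zfp516* and -0.18 to 0.05 for the log2 ratio of *Ebf2* to *Ebf1*. *Ebf2* was at 0.05 without *Egr1*-/- replicate 2, *Zfp516* at 0.08 without *Egr1*+/+ replicate 3, and *Irf4* at -0.26 without *Egr1*+/+ replicate 1 and -0.3 without *Egr1*-/- replicate 2. The ratio of *Ebf2* to *Ebf1* was 0.05 higher without *Egr1*-/- replicate 2. With total counts the list medians were -0.01 for co-regulators, -0.09 for PRDM16 and EBF2 partners, 0 for other positive regulators and -0.08 for negative regulators. Without the most muscle-rich mice they were 0.06 for co-regulators, -0.01 for PRDM16 and EBF2 partners, 0.09 for other positive regulators, 0.04 for negative regulators, 0.12 for paralogs and 0.47 for targets. The cause of these differences was not tested.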
